A study of Homo sapiens with 6 samples.

Results

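The genes described here are the metallothionein genes of chromosome 16 and MTF1, the transcription factor that controls them. They were taken by name: MT1A, MT1E, MT1F, MT1G, MT1H, MT1M, MT1X, MT2A, MT3 and MTF1, 10 of the 58174 genes of the deposited expression table, and all 10 were found in it. The libraries were labelled as AGS, an established line of human gastric adenocarcinoma cells, and transcript levels were measured by RNA sequencing of total RNA. The control group, si-NC, held 3 libraries from cells given a negative control siRNA, with the genotype labelled wild type. The other group, si-FTO, held 3 libraries from cells given an siRNA against FTO, an eraser of N6-methyladenosine in RNA. Its genotype was labelled FTO-/-, although the study's methods describe depletion by transfected siRNA. For each gene the table holds 1 value per group, the authors' mean of TPM, a level scaled to the library total and to transcript length. No spread between libraries is therefore known, the depth is unknown, no difference given here was tested, and a value printed for a group is the authors' mean.

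Metallothioneins are small cytosolic proteins rich in cysteine that bind zinc and copper, and also take up cadmium and other toxic metals. MTF1 senses free zinc in the cell, enters the nucleus and binds metal-response elements in the promoters of metallothionein genes and of the zinc exporter SLC30A1. Metallothionein genes also respond to glucocorticoids, oxidants and hypoxia, and in epithelia of the gut they buffer zinc.

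In the GRCh37 annotation, the metallothionein loci lie at chr16:56598985-56718108, a stretch of 119 kb with 17 annotated gene entries. Of these entries, 11 are protein-coding and 6 are annotated as pseudogenes or long non-coding RNAs. MT1JP has overlapping entries, a pseudogene and a long non-coding RNA, and only the pseudogene was in the expression table. FTO lies on the same chromosome, 2407 kb away. The listed metallothionein genes with a value above 0 in either group were MT2A (chr16:56642496-56643409), MT1E (chr16:56659387-56661024), MT1F (chr16:56691643-56694610) and MT1X (chr16:56716382-56718108), all on the plus strand and with 3 exons each in the transcript used. Their coding sequences, joined over the exons from the annotation's transcripts, are shown because their likeness bears on how far each gene's value can be told from that of its copies. Capitals mark the codons in frame for cysteine.
MT2A: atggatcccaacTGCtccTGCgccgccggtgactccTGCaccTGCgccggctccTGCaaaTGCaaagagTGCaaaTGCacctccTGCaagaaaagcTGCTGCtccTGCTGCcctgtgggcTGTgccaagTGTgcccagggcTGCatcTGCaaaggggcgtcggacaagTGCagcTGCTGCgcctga
MT1E: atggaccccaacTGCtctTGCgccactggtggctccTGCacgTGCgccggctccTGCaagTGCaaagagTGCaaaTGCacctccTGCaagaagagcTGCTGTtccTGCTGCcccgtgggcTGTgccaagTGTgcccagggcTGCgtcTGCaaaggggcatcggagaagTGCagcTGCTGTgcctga
MT1X: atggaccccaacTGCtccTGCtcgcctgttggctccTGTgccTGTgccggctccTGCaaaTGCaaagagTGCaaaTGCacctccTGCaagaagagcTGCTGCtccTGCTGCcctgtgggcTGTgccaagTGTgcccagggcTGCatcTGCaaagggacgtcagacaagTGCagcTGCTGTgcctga
MT1F: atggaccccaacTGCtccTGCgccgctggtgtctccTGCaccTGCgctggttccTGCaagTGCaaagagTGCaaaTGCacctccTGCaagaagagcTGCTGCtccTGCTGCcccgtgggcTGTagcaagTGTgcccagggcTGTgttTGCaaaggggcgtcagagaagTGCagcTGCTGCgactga
Each of these 4 sequences has 186 bases, and 20 of the 61 codons before the stop were cysteine codons (32.8%).

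MT2A and MT1E differed at 14 of the 186 coding bases, an identity of 92.5%, and MT2A and MT1X also at 14. MT1X and MT1F were the farthest apart among the 4 genes, with 21 differing bases and an identity of 88.7%. Over the 9 genes of the cluster with coding sequences of this length, the 36 pairs ranged from 88.7% to 95.2% (median, 91.4%), and the closest pair was MT2A and MT1G with 9 differing bases. The words of 50 bases that a gene's annotated transcripts shared with transcripts of another gene made up 4.48% of all words for MT2A, 7.10% for MT1E, 1.24% for MT1F and 18.7% for MT1X. In the transcripts whose coding sequences are shown, the share was 11.1% for MT2A, 5.34% for MT1E, 6.12% for MT1F and 51.0% for MT1X. For MT1G, MT1H and MT1M, listed at 0 in both groups, the share was 16.4%, 15.8% and 18.2%, for MT1A 5.76%, and for MT3, the form best known from brain, 0%. MT1X also overlaps a non-coding RNA on the same strand, ENSG00000259827, which was listed at 0 in both groups and held 273 of the 1821 words of MT1X. MT2A and MT1E shared no word of 50 bases with each other, and of words of 100 bases MT2A, MT1E and MT1F shared 0% with any gene. MT1X shared 11.6% of its words of 100 bases, with ENSG00000259827, and 22.0% in the transcript whose coding sequence is shown. Reads from shared stretches can be divided among similar copies by an abundance estimate, so the separate values of the metallothionein genes are uncertain to an extent that was not tested. The sum over the family does not depend on which of the listed copies a read was given to, apart from differences in transcript length.

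**Figure D1:**
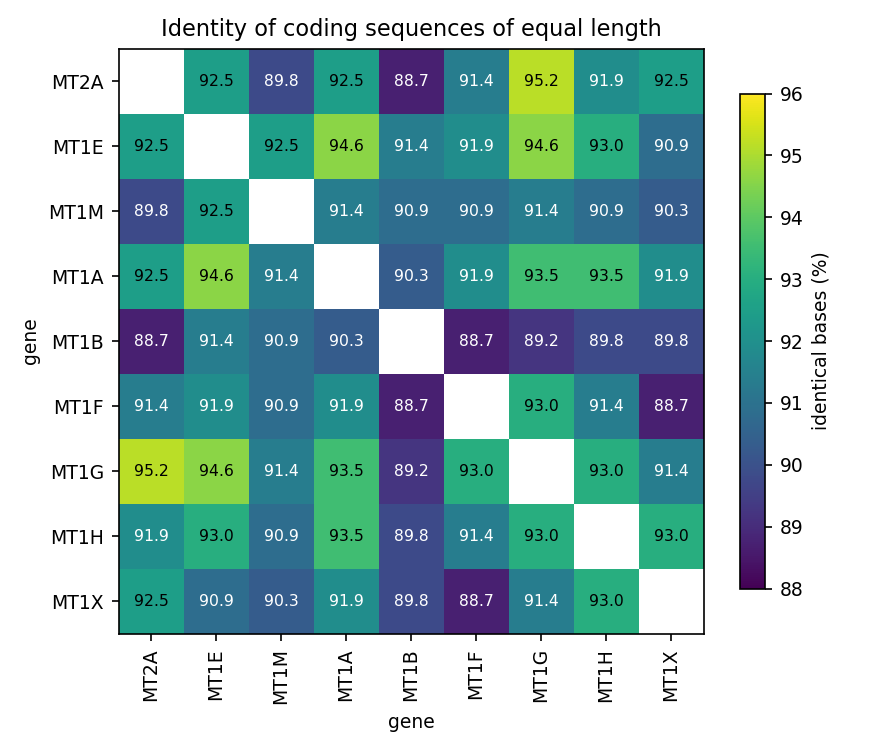
Percent of identical bases between the coding sequences of the 9 metallothionein genes of the cluster with 186 coding bases, in their order along the chromosome (each cell is 1 pair of genes). Values run from 88.7% to 95.2%, the latter for MT2A and MT1G.

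FTO, the depleted gene, stood at 33.1 TPM in si-NC against 7.27 TPM in si-FTO, which was 4.56-fold lower (log2 ratio, -2.05). Log2 ratios throughout are those of mean TPM plus a pseudocount of 1, si-FTO over si-NC, a scale that understates the change of genes with low values. Genes with a mean of at least 0.5 TPM in at least 1 group were compared, and a gene was called higher or lower where its log2 ratio reached 1 or -1. A value of exactly 0.0001, held by 26830 genes in si-NC and 29534 in si-FTO, was read as 0.

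Of the 20493 genes compared, 2340 were called higher in si-FTO (11.4%) and 3492 lower (17.0%), with a median log2 ratio of -0.20. Of the 10 genes described here, 5 were compared, of which 2 were called higher (MT2A and MT1E) and 1 lower (MT1F). MT1E passed the minimum through its si-FTO value alone, so it had to differ between the groups to be compared at all. Median-ratio scaling, which removed a log2 ratio of -0.21 between the groups, left MT2A and MT1E called higher and brought MT1F to -1.02. Under quantile normalization MT1F no longer reached the threshold, at -0.87.

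The label of the cells was checked against 15 genes of gastric epithelial lines. In si-NC, 9 of the 15 stood under 1 TPM, and 4 were at 0 (KRT7, KRT19, TFF1 and CDX1). EPCAM, a defining adhesion molecule of epithelia, stood at 1.22 TPM in si-NC against 0.113 TPM in si-FTO, and the splicing factor ESRP1 at 0.0830 TPM and 0. TFF1 and CDX1 were at 0 and KRT19 under 1 TPM in both groups. Other markers of the list stood high in si-FTO only: KRT7 at 0 against 252.8 TPM, the epithelial factor ELF3 at 0.115 TPM against 93.3 TPM, the protease ST14 at 0.0376 TPM against 39.3 TPM and the tight junction gene CLDN7 at 1.17 TPM against 14.8 TPM. The si-NC values thus went against the label of an epithelial line, those of si-FTO did so for part of the list, and the libraries are called by their group names. The summed TPM of the 15 genes was 106 in si-NC, where KRT18 led, and 5406 in si-FTO, where KRT8 led. Of the 11 that were compared, 8 were called higher and 1, SPINT2, lower, beside 11.4% and 17.0% of all genes. KRT7, ELF3, ST14, CLDN3 and CLDN4 reached 0.5 TPM in si-FTO only, so they had to differ to be compared. KRT8 stood at 10.8 TPM against 3139 TPM, and KRT18 at 52.1 TPM against 1851 TPM. Of 7 mesenchymal markers, the summed TPM was 542 and 807, most of it from VIM (440 and 752 TPM), with 1 called higher and 3 lower. The higher gene was COL1A1 (10.3 and 36.4 TPM). The lower genes were CDH2 (53.7 and 1.25 TPM), FN1 (27.7 and 8.74 TPM) and COL3A1 (2.18 and 0.361 TPM). Immune markers summed to 2.14 TPM and 6.67 TPM over 4 genes, with PTPRC at 0 in both groups and 1 called higher, the macrophage gene CD68, at 1.49 TPM against 6.42 TPM. Among endothelial markers, VWF stayed under 1 TPM in both groups and CDH5 stood at 0.00827 TPM in si-NC against 40.9 TPM in si-FTO. CDH5 also reached 0.5 TPM in si-FTO only. These markers moved between the same groups as the metallothionein genes, and their part in the results below was not tested. The groups may not hold the same cells, and a difference in cells and a difference in treatment cannot be told apart in any ratio given here. In bulk RNA, fewer cells of a type and less RNA per cell cannot be told apart. Of 12 genes that every cell uses, none was at 0, the lowest value was 22.5 TPM, for TBP, and 1, HPRT1, was called lower. The log2 ratios of the others ran from -0.74 for TBP to 0.94 for PPIA. PGK1 (0.89) and SDHA (0.82) also lay close to the threshold, while EEF1A1 (0.05) differed least. Ratios not far under the threshold thus occurred among these genes as well.

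MT2A, the most widely expressed human metallothionein, stood at 32.5 TPM in si-NC against 313.8 TPM in si-FTO. It was 9.66-fold higher in si-FTO (log2 ratio, 3.23) and ranked 422nd by log2 ratio among the genes compared. Among all genes ordered by TPM, its place moved from 4913 to 424. MT2A thus ranked far higher among the transcripts of si-FTO than among those of si-NC.

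MT1E, the inducible copy next in the cluster among the listed genes, was listed at 0 in si-NC, against 153.3 TPM in si-FTO. No fold is given against a group listed at 0. Its si-FTO value placed it 985th among all genes by TPM. Of the genes listed at 0 in si-NC, 448 reached 0.5 TPM in si-FTO, 65 reached 10 TPM, and 7 stood above MT1E. MT2A had 2.05 times the TPM of MT1E in si-FTO.

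MT1X, a copy that responds to metals and glucocorticoids, did not follow MT2A. It stood at 32.3 TPM in si-NC against 15.7 TPM in si-FTO, 2.06-fold lower, with a log2 ratio of -0.995 that fell just short of the threshold. With a pseudocount of 0.1 in place of 1 it passed, at -1.04, and it lay farther from the threshold with median-ratio scaling, at -0.79, and with quantile normalization, at -0.92. MT1F, another metal-inducible copy with a low level here, stood at 5.31 TPM and 1.78 TPM, 2.98-fold lower (log2 ratio, -1.18). MT2A and MT1X were at nearly the same level in si-NC, with a ratio of 1.01, and 19.98 apart in si-FTO. MT1X exceeded MT1F in both groups, 6.08 times in si-NC and 8.81 times in si-FTO. The family was thus divided in direction, with MT2A and MT1E higher in si-FTO and MT1X and MT1F at lower values, and neither scaling turned the direction of any of these 4 genes.

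MT1A, MT1G, MT1H, MT1M and MT3 were listed at 0 in both groups, 5 of the 9 listed metallothionein genes. The table also held 7 unlisted loci of the cluster. MT4, expressed in stratified epithelia, was at 0 in both groups, as were MT1B and the pseudogenes MT1L, MT1CP and MT1IP. The pseudogene MT1DP was listed at 0 in si-NC, against 0.825 TPM in si-FTO, and MT1JP at 0 and 0.00676 TPM. Genes at 0 and genes with values were interleaved, since between MT1E and MT1F in the cluster lie MT1M, MT1JP, MT1A, MT1DP, MT1CP and MT1B.

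**Figure D2:**
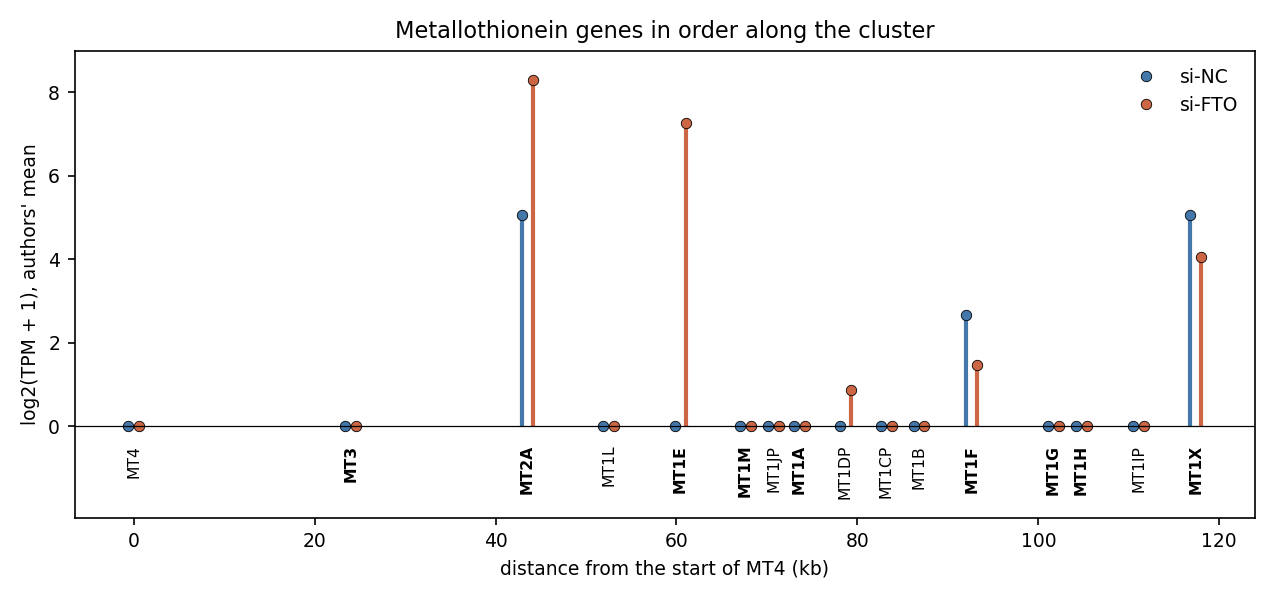
Log2(TPM + 1) of the authors' mean in si-NC and si-FTO for the 16 metallothionein loci of chromosome 16 in the table, placed by their distance in kb from the start of MT4, with the listed genes in bold. MT2A (32.5 and 313.8 TPM) and MT1E (0 and 153.3 TPM) were higher in si-FTO, MT1F (5.31 and 1.78 TPM) and MT1X (32.3 and 15.7 TPM) lower in value, and the other listed genes lie at 0.

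Copies outside the cluster were at low values. The processed pseudogene MT1XP1 stood at 0.487 TPM in si-NC against 0.155 TPM in si-FTO, MT2P1 at 0.119 TPM and 0.338 TPM, and MT1P1 at 0.1001 TPM and 0.163 TPM. None of the 3 reached the minimum of 0.5 TPM, and MT1P3 and MT1HL1 were at 0 in both groups. Transcripts of MT1XP1 and MT1P1 share words of 50 bases with MT2A and MT1X, and those of MT2P1 with MT2A and MT1E.

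Summed over the 9 listed metallothionein genes, the level was 70.1 TPM in si-NC against 484.6 TPM in si-FTO. The sum was 6.91-fold higher in si-FTO (log2 ratio, 2.77), and 2.98 on the log2 scale after scaling to the same median. Without MT2A the sum was 37.6 TPM and 170.8 TPM, and without both MT2A and MT1E it was 37.6 TPM and 17.5 TPM (log2 ratio, -1.06). The latter sum leaves out the genes already seen to be higher, so its direction follows from that choice. In si-NC, MT2A made up 46.3% of the sum, MT1X 46.1% and MT1F 7.58%. In si-FTO, MT2A made up 64.8%, MT1E 31.6%, MT1X 3.24% and MT1F 0.368%. The make-up of the pool thus passed from MT2A and MT1X in nearly equal parts to MT2A and MT1E.

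**Figure D3:**
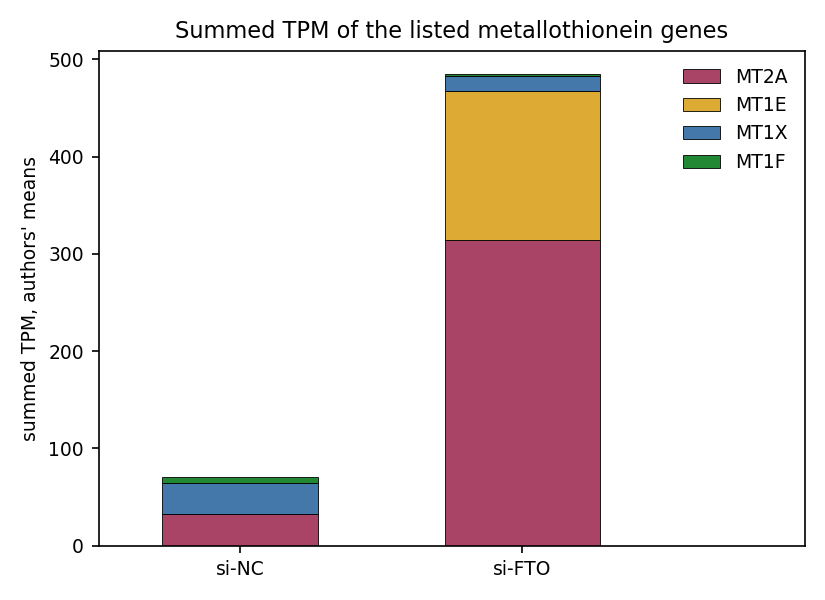
Stacked bars of the authors' mean TPM of the listed metallothionein genes in si-NC and si-FTO, 1 colour per gene. The sum is 70.1 TPM in si-NC, of which MT1X holds 46.1%, and 484.6 TPM in si-FTO, of which MT1X holds 3.24% and MT1E 31.6%.

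MTF1, the zinc-sensing activator of these genes, lies on another chromosome (chr1:38275246-38325264, minus strand). It stood at 7.79 TPM in si-NC against 8.78 TPM in si-FTO, with a log2 ratio of 0.15 that was not past the threshold, and 0.34 under either scaling. Its transcripts shared 0.642% of their words of 50 bases with other genes. MTF1 overlaps ENSG00000235673, a processed pseudogene on the other strand that was listed at 0 in both groups, and AL929472.1, which was not in the table. MT2A had 4.17 times the TPM of MTF1 in si-NC and 35.7 times in si-FTO. MTF1 transcript was thus not past the threshold under any setting run, and its level does not say how much MTF1 protein was active.

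**Figure D4:**
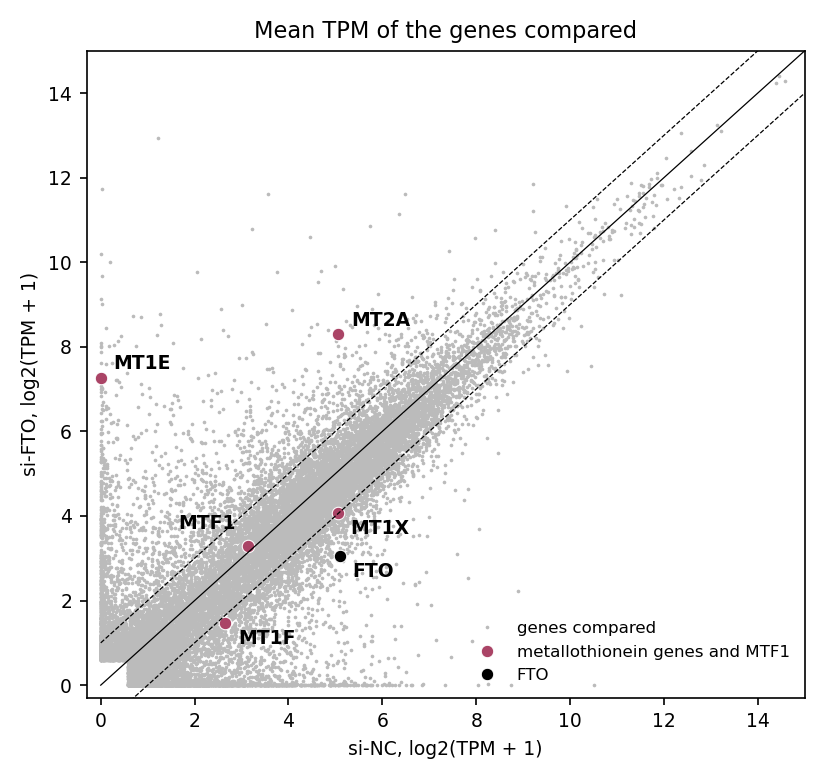
Log2(TPM + 1) in si-FTO against si-NC for the 20493 genes compared (grey), with the 5 compared metallothionein and MTF1 genes in colour and FTO in black. The solid line marks equal values and the dashed lines a log2 ratio of 1 and -1. MT2A (3.23) and MT1E (0 TPM in si-NC) lie above the upper dashed line, MTF1 (0.15) near the solid line, MT1X (-0.995) at the lower dashed line, and MT1F (-1.18) and FTO (-2.05) below it.

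Promoters were searched for the core of the metal-response element, spelled TGCACNC or TGCGCNC, on both strands and within the 250 bases before the transcription start in RefSeq's GRCh38.p14 table. The spellings differ at a fixed base, so no stretch can match both in the same place on the same strand. Entries were found for MT1H, MT1X, MT2A and MTF1, 4 of the 10 genes, and not for MT1A, MT1E, MT1F, MT1G, MT1M and MT3. The 250 bases of MT2A (chr16:56608334-56608583), MT1X (chr16:56682220-56682469) and MT1H (chr16:56669564-56669813) in GRCh38.p14, plus strand, are shown because these genes stood higher, stood lower in value and were listed at 0. Capitals mark the matches.
MT2A promoter: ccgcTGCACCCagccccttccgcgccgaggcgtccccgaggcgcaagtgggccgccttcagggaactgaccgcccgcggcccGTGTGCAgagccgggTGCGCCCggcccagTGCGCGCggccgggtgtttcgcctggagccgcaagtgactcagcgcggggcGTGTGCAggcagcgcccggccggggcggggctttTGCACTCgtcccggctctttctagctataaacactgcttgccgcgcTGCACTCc
MT1X promoter: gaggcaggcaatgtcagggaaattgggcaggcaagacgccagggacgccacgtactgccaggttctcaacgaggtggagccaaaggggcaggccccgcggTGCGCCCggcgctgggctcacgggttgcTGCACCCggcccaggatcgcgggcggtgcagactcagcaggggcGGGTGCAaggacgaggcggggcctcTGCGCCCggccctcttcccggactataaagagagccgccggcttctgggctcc
MT1H promoter: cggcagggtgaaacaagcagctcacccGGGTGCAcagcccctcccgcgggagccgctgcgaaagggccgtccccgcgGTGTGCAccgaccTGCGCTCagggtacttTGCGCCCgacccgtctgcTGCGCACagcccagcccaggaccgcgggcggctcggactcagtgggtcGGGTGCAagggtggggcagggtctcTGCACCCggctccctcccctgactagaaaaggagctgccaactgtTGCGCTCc
MT2A had 7 matches, a number that 0.0313% of the 35116 promoters in the table reach. MT1X had 4, which 0.370% reach, and MT1H, listed at 0 in both groups, had 8, which 0.0171% reach. At least 1 match was present in 24.8% of promoters and at least 3 in 1.58%. The promoter of MTF1 had 0 matches. A match describes the letters only and is not evidence of a bound site.

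Of the 12418 compared genes with a promoter entry, 11.7% were called higher and 18.3% lower. The share called higher was 12.2% with 0 matches, 11.3% with 1 and 9.60% with 2, and the share called lower 17.98%, 19.2% and 19.5%. Among the 294 with 3 or more matches, 28 were called higher (9.52%) and 42 lower (14.3%), with a median log2 ratio of -0.20. MT2A was among those 28.

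Related genes are described by lists, whose counts and medians stand beside those of all genes compared (11.4% higher, 17.0% lower, median -0.20), and no list was tested against them. A gene that reached 0.5 TPM in 1 group only had to differ to be compared, which held for CP, POU3F1, PGF, SLC40A1, ZBTB16, SLC30A10, ADGRG1, ADGRG3, CETP and SLC12A3 among those called. The 9 factors listed as acting at metallothionein promoters, MTF1 among them, had a median log2 ratio of 0.33, with 1 called higher and 0 lower. STAT3, the cytokine-activated factor, stood at 31.8 TPM in si-NC against 118 TPM in si-FTO (log2 ratio, 1.86). USF2, a factor that binds E-boxes and the most abundant of the list, stood at 103 TPM and 130.04 TPM and was not past the threshold. With the groups scaled to the same median, HIF1A was past it as well, at 1.18, but not with quantile normalization, at 0.98.

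Zinc transporters are the other genes that set cellular zinc, with the SLC30A family moving zinc out of the cytosol and the SLC39A family moving it in. Of 24 genes, 19 were compared, 2 were higher and 2 lower, beside 11.4% and 17.0% of all genes, and the median log2 ratio was -0.12. SLC30A1, the zinc exporter of the plasma membrane and a target of MTF1, stood at 9.73 TPM in si-NC against 28.2 TPM in si-FTO (log2 ratio, 1.45). SLC39A1, an importer, stood at 93.2 TPM and 203.8 TPM (log2 ratio, 1.12). No other transporter reached its si-FTO value, whereas SLC39A7 stood highest in si-NC, at 134 TPM. The lower calls, SLC30A4 (4.36 and 1.57 TPM) and SLC30A10 (1.72 and 0.0168 TPM), a manganese exporter, lay under the 5 TPM used for naming genes and were named after their values were seen. SLC30A4 was not past the threshold under either scaling (-0.91 and -0.73). With at least 5 TPM required, 2 of the family were past the threshold, and with a log2 ratio of at least 2, none. Of all genes compared, 13.3% were higher and 17.4% lower at that minimum, and 4.76% and 6.06% at that ratio.

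Copper is the other metal metallothioneins hold in normal cells. Of 15 copper handling genes, 14 were compared, 1 was higher and 2 lower, beside 11.4% and 17.0% of all genes, with a median log2 ratio of -0.40. SCO2, which carries copper to cytochrome c oxidase, stood at 24.7 TPM in si-NC against 4.21 TPM in si-FTO (log2 ratio, -2.30). ATP7B, a copper-exporting ATPase, stood at 14.2 TPM and 3.91 TPM (log2 ratio, -1.63). The higher gene was CP, the copper ferroxidase ceruloplasmin, at 0.0304 TPM and 3.07 TPM, under the naming minimum and named after its values were seen. SOD1, the copper and zinc superoxide dismutase and the most abundant of the list, stood at 503 TPM and 279 TPM and was not past the threshold (log2 ratio, -0.85).

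Genes other than metallothioneins that have been reported as MTF1 targets were divided. Of 9 genes, all were compared, 3 were higher and 3 lower, beside 11.4% and 17.0% of all genes, and the median log2 ratio was 0.01. CSRP1, a LIM domain protein, stood at 1.30 TPM in si-NC against 311 TPM in si-FTO (log2 ratio, 7.08). TXNRD2, the mitochondrial thioredoxin reductase, stood at 37.7 TPM and 121 TPM (log2 ratio, 1.66), and SLC30A1 was the other higher gene. PGF, placental growth factor, was at 19.1 TPM and 0.369 TPM (log2 ratio, -3.88). NDRG1, a gene raised by hypoxia and metals, was at 158 TPM and 27.0 TPM (log2 ratio, -2.50). SLC40A1, the iron exporter ferroportin, was at 3.96 TPM in si-NC but at 0 in the si-FTO libraries, and was named after its values were seen. In the same promoter search, CSRP1 had 4 matches, GCLC and SLC40A1 had 2, SLC30A1 had 1, and PGF, SELENOH, SLC39A10 and TXNRD2 had 0, with no entry for NDRG1. Higher and lower genes were thus found both with and without matches.

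Of 16 genes raised by toxic metals, heat or oxidants, all were compared, with 4 higher and 4 lower, beside 11.4% and 17.0% of all genes, and a median log2 ratio of 0.01. The higher genes were the quinone reductase NQO1, the cytosolic thioredoxin reductase TXNRD1, the growth inhibitor OSGIN1 and the autophagy receptor SQSTM1. NQO1 stood at 4.60 TPM in si-NC against 118.7 TPM in si-FTO (log2 ratio, 4.42) and TXNRD1 at 99.9 TPM and 409 TPM (log2 ratio, 2.02). OSGIN1 stood at 0.948 TPM and 5.64 TPM (log2 ratio, 1.77) and SQSTM1 at 122 TPM and 319 TPM (log2 ratio, 1.38). Other antioxidant genes of the list were not past the threshold, among them the glutathione synthesis genes GCLC (0.01) and GCLM (0.45), thioredoxin TXN (0.02), SRXN1 (0.92) and the cystine transporter SLC7A11 (-0.62), given here by their log2 ratios. The lower genes were the heat shock proteins HSPA1B, HSPA1A and HSPH1 and the heme oxygenase HMOX1. HSPA1B stood at 1393 TPM and 186 TPM (log2 ratio, -2.90). Its near-identical copy HSPA1A stood at 742 TPM and 189 TPM (log2 ratio, -1.97), so the separate values of both copies are uncertain as well. No other gene of the 16 reached the si-NC value of HSPA1B, whereas TXN stood highest in si-FTO, at 595 TPM. HSPH1 stood at 102 TPM and 48.2 TPM (log2 ratio, -1.07) and HMOX1 at 53.2 TPM and 25.2 TPM (log2 ratio, -1.05). HSPH1 and HMOX1 were not past the threshold with median-ratio scaling (-0.86 and -0.84), and SRXN1 was, at 1.12, while quantile normalization left all 3 on their side of it (-1.07, -1.02 and 0.93).

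Glucocorticoids raise MT2A and MT1X through the receptor NR3C1. Of 9 response genes, all were compared, 3 were higher and 3 lower, beside 11.4% and 17.0% of all genes, with a median log2 ratio of -0.64. The kinase SGK1 stood at 6.71 TPM in si-NC against 212 TPM in si-FTO (log2 ratio, 4.79). DUSP1, a phosphatase of MAP kinases, stood at 58.9 TPM and 610.0 TPM (log2 ratio, 3.35), and only its si-FTO value was the highest of the 9. The factor CEBPD stood at 4.01 TPM and 30.5 TPM (log2 ratio, 2.65). All 3 are also immediate responders to stress or cytokines. FKBP5, a co-chaperone of the receptor, stood at 64.4 TPM and 25.2 TPM (log2 ratio, -1.32), and the factor KLF9 at 26.0 TPM and 7.31 TPM (log2 ratio, -1.70). ZBTB16, at 1.40 TPM in si-NC but at 0 in the si-FTO libraries, was named after its values were seen.

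Position was described by the genes within 1 Mb. Around the metallothionein cluster, 26 of 65 genes were compared, 6 were higher and 4 lower, beside 11.4% and 17.0% of all genes, with a median log2 ratio of -0.39. BBS2, a gene of the ciliary BBSome that overlaps the start of the cluster, stood at 30.2 TPM in si-NC against 23.7 TPM in si-FTO (log2 ratio, -0.33). Before the cluster, the nearest compared genes included OGFOD1, a hydroxylase of a ribosomal protein (47.8 and 26.1 TPM), and the polyadenylation factor NUDT21 (83.6 and 59.0 TPM), neither past the threshold. After it came the nucleoporin NUP93, 45.9 kb away and the most abundant of these genes in si-NC, at 168 TPM and 68.5 TPM (log2 ratio, -1.28). Then came SLC12A3, a sodium chloride cotransporter of the kidney, listed at 0 in si-NC, against 1.52 TPM in si-FTO, and HERPUD1, a gene of the endoplasmic reticulum stress response (64.4 and 51.4 TPM), which was not past the threshold. OGFOD1, NUDT21, BBS2, NUP93 and HERPUD1 were thus at lower values in si-FTO, the direction of the median of all genes.

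Elsewhere within 1 Mb, 4 genes with at least 5 TPM in 1 group were higher. ADGRG1, an adhesion receptor, stood at 0.186 TPM in si-NC against 29.9 TPM in si-FTO (log2 ratio, 4.70), and NLRC5, an activator of MHC class I genes, at 1.78 TPM and 32.5 TPM (log2 ratio, 3.59). CETP, a lipid transfer protein, was listed at 0 in si-NC, against 7.31 TPM in si-FTO, and the G protein subunit GNAO1, 207.6 kb before the cluster, stood at 2.46 TPM and 7.22 TPM (log2 ratio, 1.25). ADGRG3, a related receptor under the naming minimum, stood at 0.0901 TPM and 3.78 TPM and was named after its values were seen. The other lower genes were CPNE2 (29.0 and 7.69 TPM), RSPRY1 (26.6 and 12.1 TPM) and the lysophospholipid acyltransferase LPCAT2 (9.88 and 4.37 TPM). RSPRY1 and LPCAT2 were not past the threshold under either scaling. Within 0.5 Mb, 6 genes were past the threshold in place of 10.

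Around MTF1, 22 of 46 genes were compared, 3 were higher and 1 lower, beside 11.4% and 17.0% of all genes, with a median log2 ratio of -0.21. On the side of lower coordinates, C1orf122, 0.120 kb away, stood at 65.1 TPM in si-NC against 66.8 TPM in si-FTO, and YRDC, an enzyme of transfer RNA modification, at 43.0 TPM and 35.3 TPM. MANEAL, an endomannosidase-like gene, stood at 25.6 TPM and 54.5 TPM (log2 ratio, 1.06). On the other side came the phosphatase INPP5B (15.03 and 12.8 TPM), the splicing factor SF3A3, the most abundant of these genes (173 and 125 TPM), and RNU6-510P (1.07 and 0.610 TPM), none past the threshold. The other higher genes were the ribonuclease ZC3H12A, at 9.65 TPM and 32.6 TPM (log2 ratio, 1.66), and its divergent transcript ZC3H12A-DT, at 0.561 TPM and 6.89 TPM (log2 ratio, 2.34). POU3F1, the lower gene, stood at 1.70 TPM and 0.0215 TPM and was named after its values were seen.

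**Figure D5:**
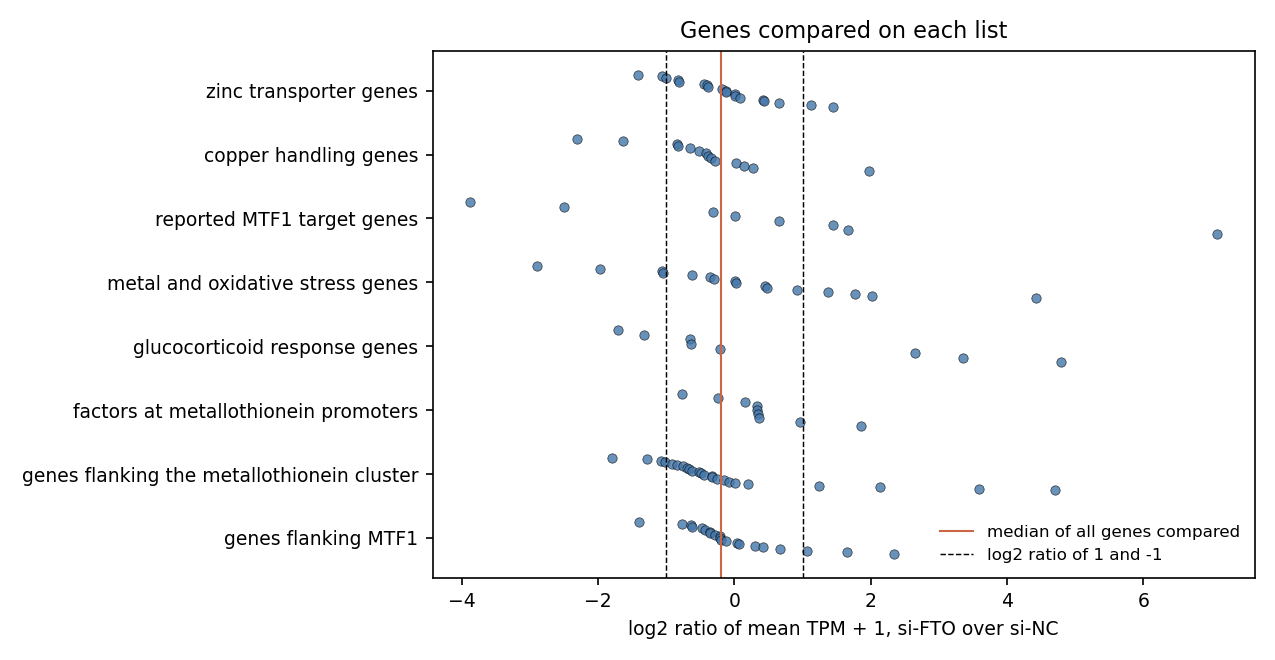
Log2 ratio of mean TPM plus 1, si-FTO over si-NC, for the compared genes on each list (1 point per gene, spread vertically for legibility), with the median of all genes compared (-0.20) as a solid line and log2 ratios of 1 and -1 dashed. Genes listed at 0 in a group (SLC40A1, ZBTB16, SLC12A3, CETP and GRIK3) are left out. CSRP1 (7.08) lies farthest to the right and PGF (-3.88) farthest to the left, both among reported MTF1 targets.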

How the data were processed

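RNA of the 6 libraries, 3 per group by their titles, was sequenced and processed by the authors. Per the study's methods, reads were mapped to hg19 with Bowtie and quantified with RSEM, while the submitters' processing notes name HISAT2 and hg19. The annotation is not given in the sources used here. The deposited values are TPM, averaged by the authors over each group, and keep no depth. The authors' comparison columns hold fold changes, p-values and q-values and were not used, nor was a further table that repeats part of the first.

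Symbols were matched for 55726 of 58174 identifiers. Log2 ratios of mean TPM were computed with a pseudocount of 1, a minimum of 0.5 TPM in 1 group and a threshold of 1, with Python 3.11.15, numpy 2.4.6 and pandas 2.3.3. The code of the rule was checked on simulated means of well-expressed genes, with changes well past the threshold and an assumed spread between libraries. That check does not cover low values or ratios near the threshold. The reference genes that every cell uses were listed after the files were seen. PECAM1, the third endothelial marker, was not matched by symbol. Tried in place of these settings were median-ratio scaling, quantile normalization, a pseudocount of 0.1, a threshold of 2, and a minimum of 5 TPM or none. A further alternative kept 0.0001 as a value and also left out both the pseudocount and the minimum.

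Named genes are the 10 listed genes, FTO, every other metallothionein locus of the cluster, the nearest 3 compared genes on each side, and, of each list, the most abundant gene and at most 5 per direction past the threshold with at least 5 TPM in 1 group. A gene covered by this rule is not reported here. Others were named after their values were seen. The genes and lists were chosen with earlier results of these data known. Coordinates and transcripts are from GENCODE on GRCh37 and promoters from RefSeq on GRCh38.p14. Protein identity had been planned, and identity of coding sequences is given in its place.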

Additional observations from a re-analysis of the deposited data

How the results depend on the processing

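The 2 genes called higher, MT2A and MT1E, were past the threshold under each alternative run. The log2 ratio of the summed metallothionein level ranged from 2.15 without MT2A to 2.98 with median-ratio scaling. It turned to -1.06 without both MT2A and MT1E, an alternative chosen after seeing the data, which leaves out the genes seen to be higher and so fixes that direction. Genes called lower numbered 1 in the main analysis and 2 with a pseudocount of 0.1. They also numbered 2 with 0.0001 kept, no pseudocount and no filter, choices that were changed together. They numbered 0 under quantile normalization and with a log2 ratio of at least 2. The share of all genes called lower at these settings was, in this order, 17.0%, 25.1%, 20.8%, 14.1% and 6.06%. With a log2 ratio of at least 2, the genes past it were 1 for copper handling, 0 for factors at metallothionein promoters and 0 for zinc transporters. They were 3 for metal and oxidative stress, 3 for glucocorticoid response, 4 around the cluster and 1 around MTF1. Of all genes compared, 4.76% were higher and 6.06% lower at that ratio. With 0.0001 kept, no pseudocount and no filter, the genes past the threshold were 10 for zinc transporters, 23 around the cluster and 13 around MTF1. That setting compared all 58174 genes, of which 12.9% were higher and 20.8% lower. A minimum of 5 TPM gave 2 zinc transporters, with 13.3% of all genes compared higher and 17.4% lower at that minimum. Median-ratio scaling gave 2 factors at metallothionein promoters, with 13.6% of all genes compared higher and 14.1% lower. A pseudocount of 0.1 gave 7 genes around MTF1 in place of 4. Of the 20493 genes compared, 3280 were higher and 5147 lower at that pseudocount, against 2340 and 3492 in the main analysis. A distance of 0.5 Mb gave 6 genes around the cluster. The median share of words shared between metallothionein transcripts was 7.10% for words of 50 bases and 0% for words of 100. For words of 100, MT1X was at 11.6%, shared with ENSG00000259827. The cause of these shifts was not tested. The remaining 62 values of these results and 21 of 24 values for MT2A, MT1X, MT1F and MTF1 alone kept their side of the threshold or lay within 1.5 times. Of all genes past the threshold, 40.1% were higher in the main analysis and 49.1% under either scaling.

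No paired analysis was possible because the table holds 1 mean per group, and leaving out a library was not possible either. The spread between libraries, the depth and the precision of each mean are unknown.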
